A study of Mus musculus with 10 samples.

Results

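Genes of the cell cycle and of DNA replication were examined in sorted mouse microglia and in whole brain tissue. The set held 40 genes chosen by name, out of 56748 genes in the deposited count table, and no member name occurred more than once there. Its members were 10 genes of DNA replication, 19 of mitosis, 9 that drive G1 and entry into S phase, and 2 inhibitors of cyclin-dependent kinases (CDKs). RNA-seq had been run on 5 samples of CD11b-positive cells isolated from brain by sorting, at 400000 cells per sample (called microglia here), and on 5 samples of hemi brains (called bulk brain). All came from young male mice of the C57BL/6 strain, without any treatment, transgene or mutation named in the labels. Whether each sample is a separate animal is not stated, and the spread behind every p-value, being that between the libraries at hand, may therefore be technical.

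A dividing cell passes through G1, S phase, G2 and mitosis. D cyclins with CDK4 and CDK6, then E cyclins with CDK2, inactivate the retinoblastoma family and so release E2F transcription factors, which switch on replication genes. The MCM helicase, loaded on origins as a ring of MCM2 to MCM7, opens the DNA in S phase, and a later wave of genes under the MuvB, B-MYB and FOXM1 factors builds the mitotic machinery. Most adult neurons have left the cycle. Microglia renew themselves by slow local division, and progenitors of oligodendrocytes and of neurons divide elsewhere in the adult brain.

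Totals per library were 25087489 to 28514509 counts for microglia and 25845049 to 34709215 for bulk brain. Levels are given as CPM, the count of a gene relative to the library total after scaling for composition. A count of 0 allows up to 3 counts, which equal 0.115 to 0.125 CPM in a microglia library and 0.082 to 0.109 CPM in a bulk brain library. This limit covers counting error only. The sort was checked on markers: the summed level of 10 microglia markers was 34070 to 35380 CPM in microglia versus 247 to 279 CPM in bulk brain, and 8 neuron markers summed to 4.16 to 7.01 CPM in microglia versus 4893 to 5531 CPM in bulk brain. The microglia markers include Itgam, the gene of CD11b itself (498 CPM in microglia versus 4.64 CPM in bulk brain), so its rise is no independent check of the sort. CD11b also marks other myeloid cells. Summed markers of border-associated macrophages (6 of 6 higher) reached 400.3 to 518 CPM in microglia, and those of neutrophils, monocytes and lymphocytes (11 genes, of which 3 could be tested and all 3 were higher) 31.4 to 41.8 CPM, mostly from the monocyte gene Ccr2 at 25.6 CPM. Of the neutrophil markers, S100a9 stood at 4.72 CPM in microglia versus 0.112 CPM in bulk brain, S100a8 at 3.09 versus 0.194 CPM and Retnlg at 0.766 versus 0.022 CPM, while Ly6g was at 0.0934 CPM and the lymphocyte gene Cd3e at 0.134 CPM in microglia. These levels lie in the range of several mitosis members, and the part of such cells in the members' levels was not tested. Markers of other brain cells were lower in microglia but not at 0: oligodendrocyte markers (6 of 6 lower) summed to 143 to 245 CPM against 5540 to 7520 CPM in bulk brain, endothelial markers (5 of 6 lower, 1 higher) to 67.1 to 98.5 CPM against 244 to 326 CPM, and astrocyte markers (6 of 6 lower) to 5.92 to 33.7 CPM against 3090 to 3932 CPM. Bulk brain replicates 1 and 2 stood apart from replicates 3 to 5, with 73.7% of the variance within that group on the first principal component.

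All 40 members passed the filter on low counts. In microglia 28 were higher and 5 lower than in bulk brain, and 7 did not pass the threshold (edgeR quasi-likelihood test, adjusted p under 0.05 over 18969 genes). Of all genes tested, 37.2% were higher and 43.9% lower, 81.0% in either direction, so 33 called members of 40 is near the background share. The median log2 difference (microglia minus bulk brain) was 0.94 over the members and -0.14 over all genes. Libraries of the groups did not overlap for 27 members that were above and 5 that were below, and the background share was 34.2% above and 40.5% below. With bulk brain replicates 3 to 5 alone, 29 members were higher and 5 lower, and with replicates 1 and 2 alone 24 and 5, both choices made after seeing the data. In bulk tissue, fewer cells of a type and less RNA per cell cannot be told apart. The plot of log2 differences shows the members by role.

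**Figure D1:**
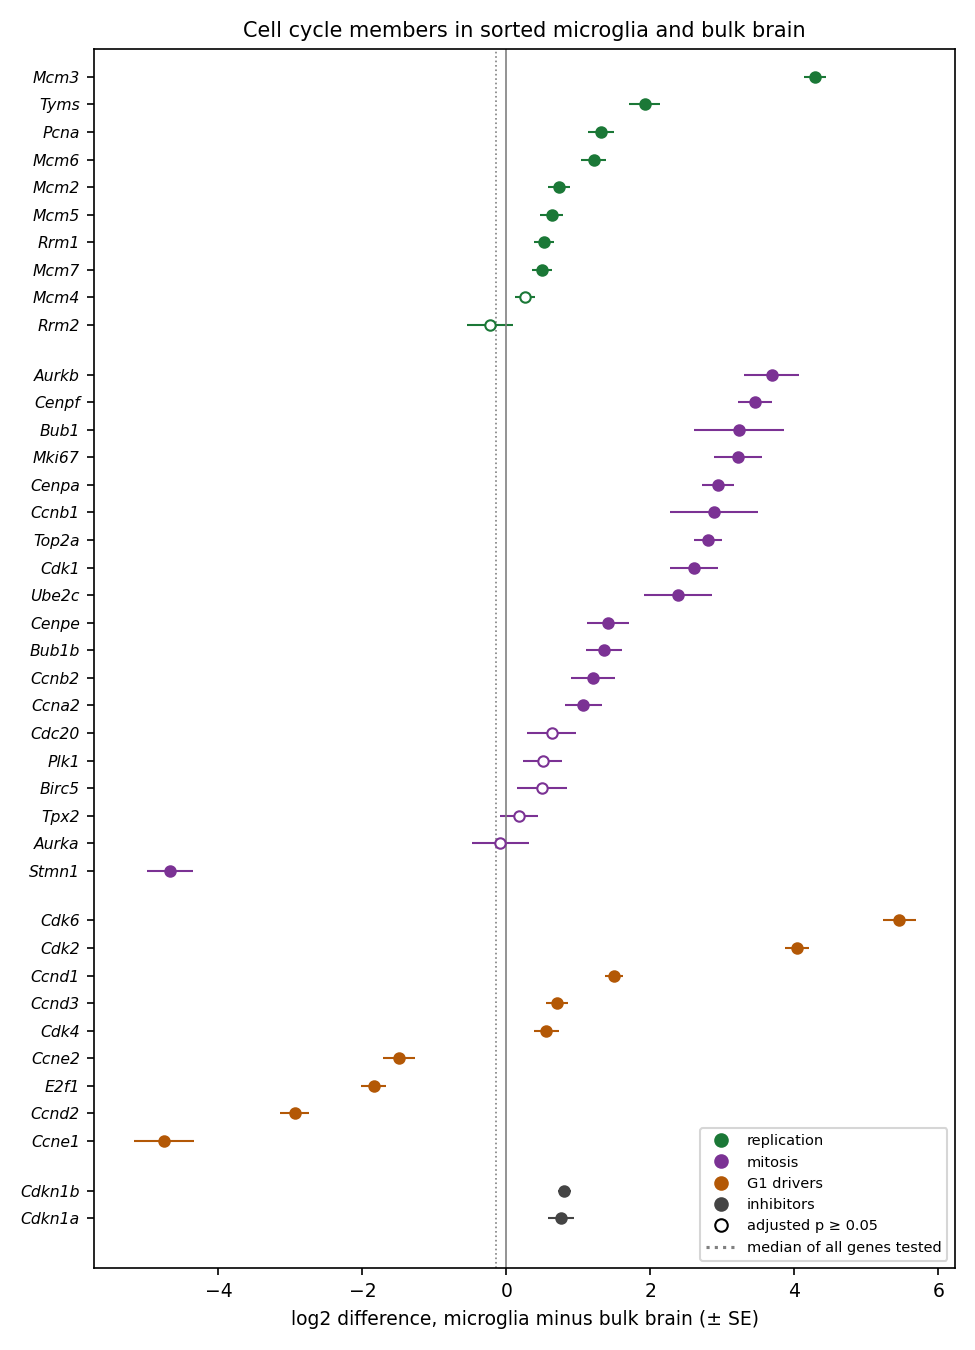
Log2 difference between microglia and bulk brain for each of the 40 members, with its SE, grouped by role (horizontal axis: log2 difference, to the right higher in microglia). Filled points passed adjusted p under 0.05 and open points did not. Cdk6 is farthest right at 5.46 and Ccne1 farthest left at -4.76, and the dotted line marks the median of all genes tested, -0.14.

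Among replication genes, 8 of 10 were higher in microglia, 2 did not pass the threshold and 0 were lower (median log2 difference 0.68). Their summed level was 238 to 267 CPM in the microglia libraries and 100.2 to 119 CPM in bulk brain. The 6 subunits of the MCM ring did not move alike. Mcm3 (ENSMUSG00000041859, chromosome 1, 20873192 to 20890536, minus strand, GRCm39) stood at 61.9, 59.3, 55.1, 56.6 and 53.4 CPM in microglia replicates 1 to 5 and at 3.64, 2.74, 2.47, 2.37 and 3.41 CPM in bulk brain. Every microglia library thus lay far above every bulk brain library, a 19.6-fold difference of means (log2 difference 4.29 ± 0.15 SE, edgeR adjusted p = 2.0e-10). Its partners differed far less. Mcm6 (chromosome 1, 128259327 to 128287401, minus strand) stood at 19.3 ± 1.69 CPM (SD, n = 5) in microglia and 8.34 ± 2.13 CPM (n = 5) in bulk brain, a log2 difference of 1.21 ± 0.18 (edgeR adjusted p = 4.6e-05). The log2 differences were 0.73 for Mcm2 (edgeR adjusted p = 6.2e-04), 0.63 for Mcm5 (0.0032) and 0.50 for Mcm7 (0.0056). Mcm4 was at 16.5 ± 2.15 CPM in microglia versus 13.8 ± 1.78 CPM in bulk brain, with overlapping libraries (log2 difference 0.26, edgeR adjusted p = 0.10). Mcm7 overlaps Ap4m1 by 421 bases and Cops6 by 64 bases on the opposite strand, and reads of such genes may be mixed since no source used here gives the strand setting of the counting. Ap4m1 stood at 32.8 CPM in microglia versus 11.2 CPM in bulk brain, and Cops6 at 30.7 versus 84.6 CPM. Their part in the Mcm7 counts was not tested.

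The levels of genes can be compared only per length, so CPM were also divided by the gene length in kilobases. That length is the one given in the deposited table. Which transcripts were expressed was not examined, so orders and shares between genes depend on it. On that scale Mcm3 held 46.2% ± 2.05 (SD, n = 5) of the sum of the 6 subunits in microglia and 6.25% ± 1.16 in bulk brain, and the share ranged from 44.3% to 49.4% and from 5.12% to 7.62%. The most abundant subunits per kilobase in bulk brain were Mcm4 at 3.84 ± 0.495 and Mcm7 at 3.54 ± 0.651 CPM per kilobase, which overlapped each other, and Mcm3 had the lowest mean there, 0.780 ± 0.151, overlapping Mcm2 at 0.936. In microglia Mcm3 reached 15.3 ± 0.906 CPM per kilobase, followed by Mcm7 at 5.02 ± 0.291, Mcm4 at 4.59 ± 0.599 and Mcm6 at 4.15 ± 0.363, and these last 3 overlapped. The members were chosen by name with earlier results of these data known, and the shares were set up as a description and have no test.

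**Figure D2:**
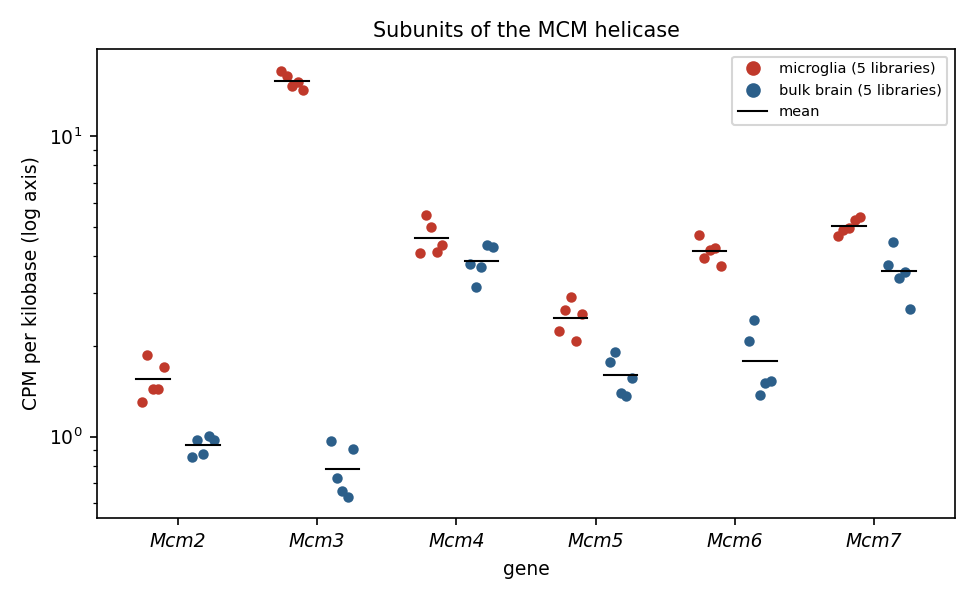
CPM per kilobase of gene length (log axis) for the 6 subunits of the MCM helicase, with a point for each of 5 microglia and 5 bulk brain libraries and a line at the mean. Mcm3 is at 14.2 to 16.5 in microglia versus 0.632 to 0.969 in bulk brain, while the groups lie within 2.32-fold of each other by mean for the other subunits.

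The promoters of Mcm3 and Mcm6 are shown because they belong to subunits of the same ring with different log2 differences. Each is the 250 bases before the RefSeq start of the gene in build GRCm38.p6, minus strand, at chr1:20820313-20820562 for Mcm3 and chr1:128359706-128359955 for Mcm6. Capitals mark matches on either strand to the E2F words TTTCCCGC, TTTCGCGC, TTTGCCGC and TTTGGCGC, to the cell cycle homology region (CHR) words TTTGAA and TTCGAA, and to CCAAT, and overlapping matches run together.
Mcm3: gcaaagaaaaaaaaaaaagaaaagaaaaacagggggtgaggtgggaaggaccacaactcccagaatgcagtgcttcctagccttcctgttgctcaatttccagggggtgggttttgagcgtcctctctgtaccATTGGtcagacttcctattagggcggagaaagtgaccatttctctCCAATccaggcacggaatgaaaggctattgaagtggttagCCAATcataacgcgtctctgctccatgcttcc
Mcm6: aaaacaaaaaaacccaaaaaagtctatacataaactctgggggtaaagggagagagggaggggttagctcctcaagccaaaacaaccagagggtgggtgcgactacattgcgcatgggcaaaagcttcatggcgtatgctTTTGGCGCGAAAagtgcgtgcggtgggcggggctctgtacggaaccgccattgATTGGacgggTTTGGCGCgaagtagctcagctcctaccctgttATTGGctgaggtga
The Mcm3 window held 3 CCAAT matches, and none of the E2F or CHR words is among its letters. The Mcm6 window held 3 E2F matches, at 110, 106 and 47 bases before the start, of which the first 2 overlap, and 2 CCAAT matches. The pair does not stand for the whole ring. Mcm2, with a log2 difference of 0.73, also lacked an E2F word, and Mcm5 held it. Mcm7 had a window with an E2F word and another without, and Mcm4 had no window. A link between these words and the log2 differences was not tested. RefSeq windows were found for 32 of 40 members (35 windows). Of the 10 windows of replication members 3 held an E2F word, against 1.86% of all 32851 windows, and 9 held CCAAT, against 33.8%. Such matches are descriptions of letters.

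Pcna, which encodes the sliding clamp of the replication fork, was the most abundant replication member per kilobase in both groups (29.5 CPM per kilobase in microglia, 11.9 in bulk brain). It stood at 73.8, 78.9, 65.9, 65.1 and 70.8 CPM in microglia replicates 1 to 5 and at 34.4, 40.6, 23.9, 22.6 and 21.6 CPM in bulk brain. Bulk brain replicates 1 and 2 were thus nearer to microglia than replicates 3 to 5, but no library crossed over (log2 difference 1.31 ± 0.18 SE, edgeR adjusted p = 3.0e-05). Genes that supply deoxynucleotides were unequal. Tyms, the thymidylate synthase gene, was higher in microglia, at 7.07 ± 0.699 CPM against 1.87 ± 0.545 CPM (log2 difference 1.92, edgeR adjusted p = 5.5e-06). Rrm1, the large subunit of ribonucleotide reductase, stood at 32.4 ± 1.92 CPM against 22.6 ± 4.01 CPM (0.52, edgeR adjusted p = 0.0036), and it did not pass when bulk brain replicate 1 was left out (adjusted p = 0.056). Rrm2, the small subunit, whose transcript is made mainly in S phase, stood at 1.36 ± 0.460 CPM and 1.60 ± 0.401 CPM, with a log2 difference of -0.23 ± 0.31 that did not pass the threshold (edgeR adjusted p = 0.52). Per kilobase, Rrm1 was at 2.94 and Rrm2 at 0.491 in microglia.

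A wider list of 48 genes of origin licensing and the replication fork gave 22 higher, 10 lower and 16 not past the threshold (median log2 difference 0.34). Of all genes tested, 37.2% were higher and 43.9% lower, 81.0% in either direction. The count of genes higher was 15 to 23 over the other settings, with 15 for no filter on low counts, 16 for library size alone and 17 without bulk brain replicate 1, 3, 4 or 5. The largest rises among those with at least 5 CPM were Dbf4, which encodes the activating subunit of the CDC7 kinase (20.8 ± 2.15 CPM against 1.81 ± 0.428 CPM, log2 difference 3.52), Samhd1, a triphosphohydrolase that degrades deoxynucleotides (202 ± 9.84 CPM against 20.4 ± 2.35 CPM, 3.31), and Tk1, the thymidine kinase of S phase (11.8 ± 1.66 CPM against 1.45 ± 0.675 CPM, 3.04). The largest falls were Dut, the dUTPase gene (2.32 ± 0.548 CPM against 27.3 ± 10.2 CPM, -3.56), Cdc7 itself (5.34 ± 0.586 CPM against 18.1 ± 4.2 CPM, -1.76) and Tipin, a fork protection gene (4.95 ± 1.63 CPM against 12.2 ± 2.54 CPM, -1.30). Dbf4 and Cdc7, which encode the parts of a single kinase, differed in opposite directions.

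Of the 19 mitosis genes, 13 were higher in microglia, 1 was lower and 5 did not pass the threshold (median log2 difference 1.41). The marker of cycling cells Mki67 (ENSMUSG00000031004, chromosome 7, 135291513 to 135318090, minus strand) stood at 17.5, 18.9, 15.7, 23.2 and 13.8 CPM in microglia replicates 1 to 5 and at 0.683, 1.61, 2.04, 3.06 and 2.17 CPM in bulk brain. Every microglia library was above every bulk brain library, by 9.32-fold in the mean (log2 difference 3.22 ± 0.33 SE, edgeR adjusted p = 2.4e-06). Top2a, the topoisomerase gene of dividing cells, stood at 12.7, 13.0, 12.7, 12.5 and 10.4 CPM in microglia and at 1.37, 2.36, 2.04, 1.36 and 1.68 CPM in bulk brain (log2 difference 2.80 ± 0.20, edgeR adjusted p = 8.1e-08). Cenpf, a kinetochore gene, was at 9.48 ± 1.34 CPM against 0.865 ± 0.226 CPM (3.45) and Cenpa, the centromeric histone gene, at 9.12 ± 1.15 CPM against 1.19 ± 0.291 CPM (2.94). The groups did not overlap in any of these 4 genes.

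Regulators of mitosis had lower counts. Aurkb, the kinase of the chromosomal passenger complex, showed the largest rise of the mitosis members, a log2 difference of 3.68 ± 0.38 (edgeR adjusted p = 2.4e-06), at 2.02, 1.90, 1.23, 1.95 and 1.17 CPM in microglia versus 0.0547 to 0.208 CPM in bulk brain, where it had 21 counts over 5 libraries. The checkpoint kinase gene Bub1 was at 1.59, 0.852, 1.5, 1.95 and 1.75 CPM in microglia and had 27 counts over the bulk brain libraries, 14 of them in replicate 2 and 0 in replicate 5, where 3 counts would be 0.0825 CPM (log2 difference 3.23 ± 0.62, edgeR adjusted p = 4.6e-04). The Bub1 log2 difference was 3.80 without bulk brain replicate 2, 4.38 against replicates 3 to 5 alone and 2.29 against replicates 1 and 2 alone, and it passed the threshold in each case. Cdk1, which drives mitosis, was at 3.46 ± 0.867 CPM against 0.563 ± 0.235 CPM (2.60 ± 0.33, edgeR adjusted p = 1.4e-05). Its partner cyclins were Ccnb1, at 1.36 ± 0.591 CPM against 0.183 ± 0.127 CPM (2.89 ± 0.61, edgeR adjusted p = 9.4e-04; 0 counts in bulk brain replicate 2, where 3 counts would be 0.0865 CPM), and Ccnb2, at 1.51 ± 0.423 CPM against 0.656 ± 0.182 CPM (1.21 ± 0.31, edgeR adjusted p = 0.0033). Ube2c, Cenpe, Bub1b and Ccna2 were the other genes that rose, with log2 differences from 1.07 for Ccna2 to 2.38 for Ube2c. Ccna2 (edgeR adjusted p = 0.0022) did not pass against bulk brain replicates 1 and 2 alone (adjusted p = 0.092), and overlaps Exosc9 by 863 bases.

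The remaining mitotic genes did not show this difference. Aurka, the centrosomal Aurora kinase, stood at 2.78, 1.28, 1.54, 0.715 and 2.12 CPM in microglia and at 2.05, 2.94, 1.56, 1.04 and 1.35 CPM in bulk brain, so the groups overlapped throughout (log2 difference -0.09 ± 0.39, edgeR adjusted p = 0.85). Tpx2, which activates Aurora A on the spindle, was at 2.87 ± 1.01 CPM against 2.54 ± 0.340 CPM (0.18 ± 0.27, edgeR adjusted p = 0.55). The sign of both log2 differences changed between settings. Plk1, Birc5 and Cdc20, which encode a mitotic kinase, survivin and an activator of the anaphase-promoting complex, had log2 differences of 0.51 (edgeR adjusted p = 0.10), 0.49 (0.21) and 0.63 (0.11). Cdc20 passed when bulk brain replicate 2 was left out (0.79 on the log2 scale, adjusted p = 0.036) and against replicates 3 to 5 alone (0.89, adjusted p = 0.031). Cdc20 overlaps Elovl1 by 53 bases on the opposite strand. Elovl1 stood at 57.8 CPM in microglia versus 15.6 CPM in bulk brain, and its part in the Cdc20 counts was not tested. At 121 to 425 counts over the bulk brain libraries and 130 to 364 over the microglia libraries, small differences in these 5 genes were not detectable.

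Stmn1 was the exception in the other direction. Stathmin, its product, destabilises microtubules in mitosis and is also abundant in neurons. It stood at 14.8, 18.9, 15.6, 15.8 and 17.7 CPM in microglia and at 512, 762, 285, 276 and 274 CPM in bulk brain, 25.5-fold lower in microglia by mean (log2 difference -4.67 ± 0.32 SE, edgeR adjusted p = 6.5e-08). Bulk brain replicates 1 and 2 were above replicates 3 to 5. With Stmn1 included, the summed level of the mitosis members was lower in microglia (88.1 to 101 CPM) than in bulk brain (292 to 785 CPM), whereas the other 18 members summed to 72.5 to 84.8 CPM in microglia versus 16.8 to 22.3 CPM in bulk brain, 4.13-fold higher by mean. Leaving Stmn1 out was chosen after its values were seen.

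**Figure D3:**
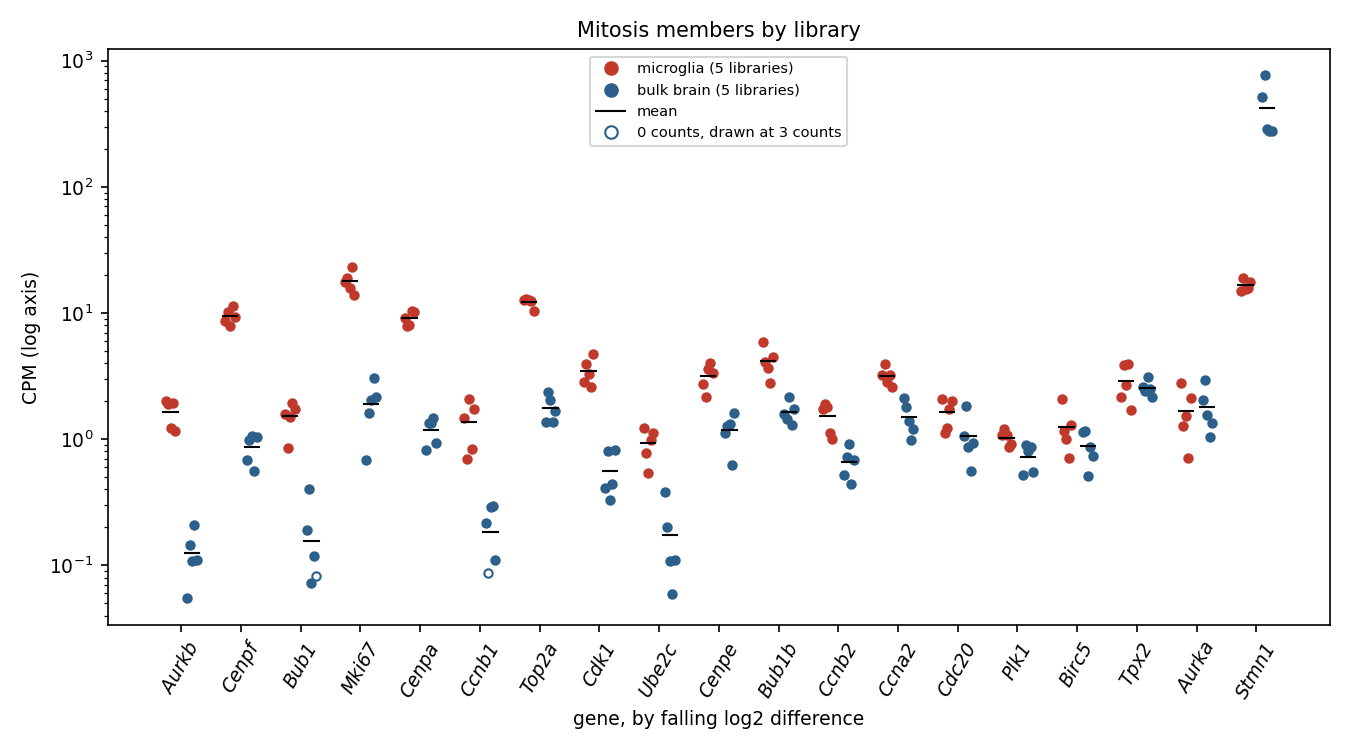
CPM (log axis) of the 19 mitosis members in 5 microglia and 5 bulk brain libraries, ordered by falling log2 difference, with a line at the mean; open points had 0 counts and are drawn at 3 counts. Mki67 lies at 13.8 to 23.2 CPM in microglia versus 0.683 to 3.06 CPM in bulk brain, the groups overlap from Cdc20 to Aurka, and Stmn1 lies at 274 to 762 CPM in bulk brain.

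The promoters of Cdk1 and Top2a are shown as members of the group that was higher together, with the same motifs in capitals, 250 bases before the RefSeq start in GRCm38.p6, minus strand, at chr10:69352913-69353162 for Cdk1 and chr11:99024190-99024439 for Top2a.
Cdk1: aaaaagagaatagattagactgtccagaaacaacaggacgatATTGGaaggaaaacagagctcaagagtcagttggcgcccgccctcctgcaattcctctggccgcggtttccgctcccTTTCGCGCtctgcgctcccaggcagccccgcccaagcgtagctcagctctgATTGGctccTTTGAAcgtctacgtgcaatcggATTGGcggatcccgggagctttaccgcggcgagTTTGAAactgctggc
Top2a: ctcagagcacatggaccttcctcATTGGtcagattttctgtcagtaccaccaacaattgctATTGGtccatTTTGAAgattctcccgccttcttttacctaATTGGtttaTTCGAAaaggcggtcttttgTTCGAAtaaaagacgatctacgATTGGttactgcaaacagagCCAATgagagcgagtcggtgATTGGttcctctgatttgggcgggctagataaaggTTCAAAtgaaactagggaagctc
The Cdk1 window held 1 E2F word, 2 CHR words, at 71 and 15 bases before the start, and 3 CCAAT matches. The Top2a window held 4 CHR words, at 179, 140, 120 and 23 bases before the start, and 6 CCAAT matches. Of the 15 windows of mitosis members 7 held a CHR word, against 17.1% of all windows, and 14 held CCAAT, against 33.8%. The CHR motif was present both in genes that rose (Cdk1, Mki67, Top2a, Bub1b, Ccnb2 and Ube2c) and in Cdc20, which did not pass the threshold. It was absent from the windows of Ccnb1, Bub1, Cenpa, Cenpe and Cenpf, which also rose. The windows of Aurka, Birc5 and Plk1, which did not pass, lacked it too.

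A wider list of 50 genes of chromosome segregation and cytokinesis, of which 48 could be tested, gave 27 higher, 10 lower and 11 not past the threshold (median log2 difference 1.04). The background was 37.2% higher and 43.9% lower over all genes tested. The count of genes higher was 19 to 27 over the other settings. The largest rises were Espl1, which encodes separase, the protease that parts sister chromatids (34.3 ± 3.47 CPM against 1.5 ± 0.500 CPM, log2 difference 4.5), Ncaph, a subunit of condensin I (22.8 ± 2.77 CPM against 1.14 ± 0.282 CPM, 4.31), and the transcription factor gene Foxm1 (5.99 ± 0.771 CPM against 0.992 ± 0.246 CPM, 2.59). The largest falls were Anln, which encodes the ring protein anillin (3.60 ± 0.693 CPM against 53.9 ± 15.3 CPM, -3.90), the phosphatase gene Cdc25b (2.46 ± 0.814 CPM against 15.2 ± 1.25 CPM, -2.62) and the kinesin gene Kif22 (2.34 ± 0.724 CPM against 5.72 ± 0.470 CPM, -1.29). As in the MCM ring, subunits of condensin I differed from each other: beside Ncaph, Ncapd2 was lower in microglia (15.1 ± 0.981 CPM against 27.8 ± 1.98 CPM, -0.88), and Ncapg, Smc2 and Smc4 were higher by 2.02, 1.02 and 1.27 on the log2 scale. These 4 subunits were chosen after their values were seen.

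Markers of other cells known to divide in the adult brain were lower in microglia, which the sort on CD11b fixes in advance. The summed level of 6 markers of oligodendrocyte precursors was 1.62 to 3.79 CPM in microglia versus 159 to 225 CPM in bulk brain (6 of 6 lower), and that of 9 markers of neural progenitors and neuroblasts 1.98 to 4.5 CPM and 112 to 158 CPM (8 of 8 tested lower), with Eomes, Neurog2, Dlx1 and Dlx2 at 0 counts in all microglia libraries. Bulk brain held 0.697% of the microglial level of microglia markers (median of 10) and, as the median over the 19 mitosis members, 37.4% of their microglial level. The members ranged widely, from 7.57% for Aurkb, 10.7% for Mki67 and 14.4% for Top2a through 39.2% for Bub1b and 47.5% for Ccna2 to 106% for Aurka and, far above, Stmn1. The part of each cell type in these levels was not tested.

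Genes that drive G1 split in both directions, with 5 of 9 higher, 4 lower and 0 not past the threshold (median log2 difference 0.56). A split of this kind is also the background, at 37.2% up and 43.9% down in microglia over all genes tested. The summed level of the G1 drivers was 322 to 363 CPM in microglia versus 150.3 to 167 CPM in bulk brain. Cdk6 (ENSMUSG00000040274, chromosome 5, 3391485 to 3581008, plus strand) stood at 145, 147, 129, 131 and 137 CPM in microglia replicates 1 to 5 and at 2.16, 2.31, 2.58, 4.51 and 4.09 CPM in bulk brain. This was the largest rise of any member, 44.0-fold by mean (log2 difference 5.46 ± 0.23 SE, edgeR adjusted p = 8.8e-10). Bulk brain held 2.27% of the microglial level of Cdk6, the lowest such value of the members. Cdk2, the partner of E and A cyclins, was at 45.4, 49.5, 40.2, 45.5 and 46.6 CPM in microglia and at 3.66, 3.03, 2.80, 2.17 and 2.2 CPM in bulk brain, 16.4-fold higher (4.03 ± 0.17, edgeR adjusted p = 8.2e-10). Cdk4 changed far less, from 37.3 ± 10.9 CPM in bulk brain to 54.9 ± 5.44 CPM in microglia with overlapping libraries (0.56 ± 0.18, edgeR adjusted p = 0.013). Its call was lost with library size alone (adjusted p = 0.079), with no filter on low counts (0.079), without bulk brain replicate 3 (0.050) and against bulk brain replicates 1 and 2 alone (0.42). Cdk4 also overlaps Tspan31 by 641 bases on the opposite strand, and Tspan31 stood at 72.1 CPM in microglia versus 27.0 CPM in bulk brain.

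Per kilobase, Cdk4 made up 94.2% ± 1.26 of the sum of Cdk2, Cdk4 and Cdk6 in bulk brain and 49.6% ± 1.23 in microglia. Cdk6 made up 2.04% ± 1.05 of that sum in bulk brain and 29.0% ± 1.14 in microglia. Cdk2 made up 3.75% ± 0.685 and 21.5% ± 0.556 (SD, n = 5 libraries for each). Cdk4 was thus the most abundant of the 3 per kilobase in both groups, at 16.9 CPM per kilobase in microglia and 11.5 in bulk brain. Below it, the order of Cdk6 and Cdk2 per kilobase was reversed between the groups. This reversal rests on the gene lengths used, 13989 bases for Cdk6 and 6219 for Cdk2. By mean CPM, Cdk6 was above Cdk2 in microglia (138 against 45.5) and in bulk brain (3.13 against 2.77, with overlapping libraries).

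D cyclins, the partners of CDK4 and CDK6, also differed from each other. Ccnd1 was at 58.0, 67.7, 63.7, 77.3 and 66.9 CPM in microglia and at 22.5, 18, 26.1, 26.2 and 25.7 CPM in bulk brain (log2 difference 1.49 ± 0.13, edgeR adjusted p = 4.8e-07). Ccnd2 was at 5.55, 4.57, 7.20, 4.81 and 5.25 CPM in microglia and at 33.4, 29.6, 45.2, 50.1 and 52.0 CPM in bulk brain, 7.68-fold lower in microglia (-2.94 ± 0.20, edgeR adjusted p = 6.0e-08). Ccnd3 was at 27.0 ± 2.85 CPM against 16.7 ± 3.50 CPM (0.70 ± 0.15, edgeR adjusted p = 0.0012). No D cyclin had overlapping groups. Per kilobase Ccnd1 held 79.3% ± 2.97 of the D cyclin sum in microglia and 44.0% ± 2.32 in bulk brain, and Ccnd2 held 3.29% ± 0.734 and 38.8% ± 4.86, while the share of Ccnd3 was 17.4% ± 2.51 and 17.2% ± 5.95 and overlapped. In bulk brain the per-kilobase levels of Ccnd1 (3.82 to 5.57) and Ccnd2 (3.15 to 5.53) overlapped. Ccnd1 overlaps the gene listed as LTO1 by 1771 bases and Ccnd3 overlaps Bysl by 361 bases, both on the opposite strand.

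Both E cyclins, which activate CDK2 at the start of S phase, were lower in microglia. Ccne1 was at 0.278, 0.736, 0.270, 1.11 and 0.291 CPM in microglia and at 14.9, 22.4, 12.1, 11.6 and 12.4 CPM in bulk brain, 27.3-fold lower by mean (log2 difference -4.76 ± 0.42, edgeR adjusted p = 5.7e-07), the largest fall of any member. Microglia replicates 2 and 4 held 47 of its 68 microglial counts. Ccne2, which overlaps Ints8 by 5622 bases on the opposite strand, was at 3.02 ± 0.736 CPM against 8.5 ± 1.64 CPM (-1.49 ± 0.22, edgeR adjusted p = 5.8e-05). Ints8 stood at 61.9 CPM in microglia versus 25.7 CPM in bulk brain, and its part in the Ccne2 counts was not tested. Per kilobase Ccne1 was the more abundant E cyclin in every bulk brain library (61.1% to 83.7% of their sum) and Ccne2 in every microglia library (59.9% to 91.6%). The CDK2 gene was thus higher and the genes of its E cyclins lower in the same libraries.

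**Figure D4:**
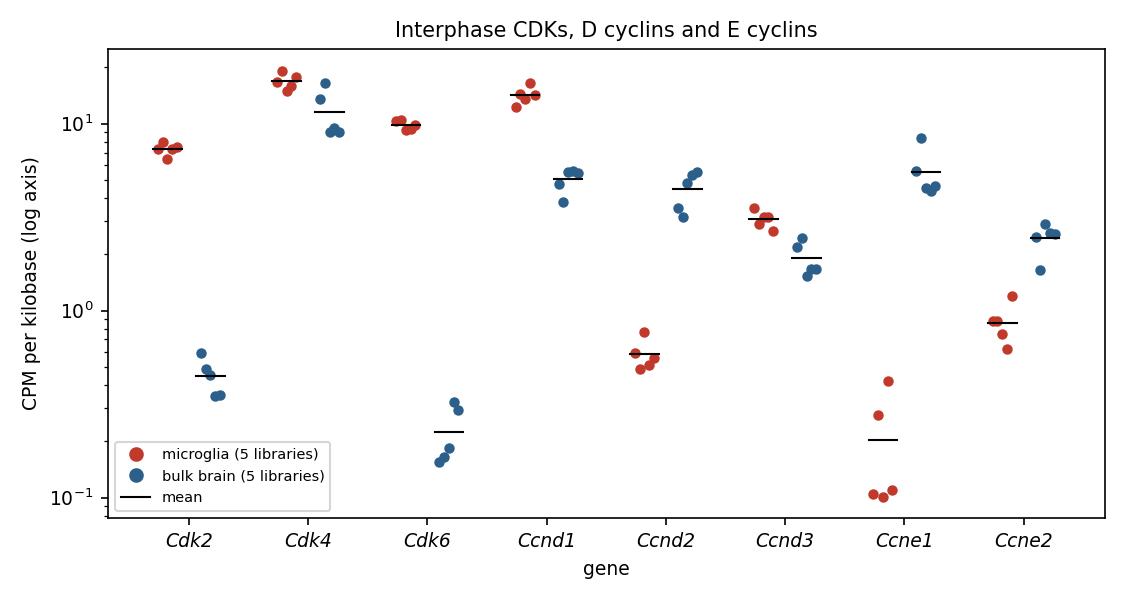
CPM per kilobase of gene length (log axis) of the interphase CDK genes, the D cyclins and the E cyclins in 5 microglia and 5 bulk brain libraries, with a line at the mean. Cdk2 and Cdk6 are higher and Ccnd2, Ccne1 and Ccne2 lower in microglia without overlap, and the libraries of Cdk4 overlap.

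E2f1, the gene of an activating E2F factor, was at 2.50, 3.21, 2.58, 2.23 and 2.58 CPM in microglia and at 10.01, 11.4, 8.76, 9.13 and 7.72 CPM in bulk brain, 3.59-fold lower (log2 difference -1.84 ± 0.18, edgeR adjusted p = 1.2e-06). Of 9 further genes for E2F and DP factors, 4 rose, 3 fell and 2 missed the threshold (median 0.31), beside 37.2% higher and 43.9% lower over all genes tested. E2f3, another activator, was higher (66.0 ± 6.51 CPM against 25.9 ± 3.62 CPM, log2 difference 1.35), as was E2f4, a repressor that binds pocket proteins (61.5 ± 2.96 CPM against 27.4 ± 4.79 CPM, 1.17). E2f5 was higher by 0.31 (edgeR adjusted p = 0.029), a call lost under 12 of 20 settings, with adjusted p from 0.012 to 0.51, and without microglia replicate 2 or any single bulk brain library. The repressor gene E2f6 was lower (12.9 ± 1.47 CPM against 42.8 ± 3.24 CPM, -1.72), as were the partner genes Tfdp2 (-0.82) and Tfdp1 (-0.47). E2f2, which was chosen after its values were seen, was the remaining riser (4.46 ± 1.11 CPM against 0.739 ± 0.198 CPM, 2.58).

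Both CDK inhibitors were higher in microglia, by less than Cdk6 or Mcm3, which were among the largest rises. Their median log2 difference was 0.78, beside 0.68 for replication members, 0.56 for G1 drivers and 1.41 for mitosis members. Cdkn1a, which encodes p21, a target of p53 (ENSMUSG00000023067, chromosome 17, 29309950 to 29319701, plus strand), was at 30.3, 31.1, 32.0, 26.3 and 24.9 CPM in microglia and at 21.0, 22.4, 15.6, 14.2 and 12.2 CPM in bulk brain. The groups did not overlap, and bulk brain replicates 1 and 2 lay nearest to microglia (log2 difference 0.76 ± 0.18 SE, edgeR adjusted p = 0.0018). The opposite-strand transcript 1700023B13Rik, which shares 1046 bases with it, stood at 2.39 CPM in microglia versus 0.0996 CPM in bulk brain. Cdkn1b, which encodes p27, a brake held at high level in resting cells, was at 129, 123, 116, 112 and 103 CPM in microglia and at 68.8, 61.0, 71.1, 68.5 and 64.7 CPM in bulk brain (0.80 ± 0.09, edgeR adjusted p = 4.9e-06). Per kilobase Cdkn1b was at 25.6 and Cdkn1a at 8.15 CPM per kilobase in microglia, against 14.7 and 4.80 in bulk brain.

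A wider list of 23 brakes on the cell cycle, of which 22 could be tested, gave 14 higher, 5 lower and 3 not past the threshold (median log2 difference 1.31). Over all genes tested, 37.2% were higher and 43.9% lower. Btg2, an antiproliferative gene that is also an immediate early gene, showed the largest rise (1418 ± 155 CPM against 18.6 ± 3.94 CPM, 6.25), followed by the pocket protein gene Rbl1, which encodes p107 (48.8 ± 5.41 CPM against 3.41 ± 0.937 CPM, 3.84), and the stress kinase gene Plk3 (99.8 ± 4.96 CPM against 9.54 ± 0.803 CPM, 3.39). Rb1 was higher too (114 ± 5.47 CPM against 40.6 ± 14.9 CPM, 1.49), as was Trp53, which encodes p53 (89.7 ± 3.19 CPM against 16.9 ± 3.42 CPM, 2.41). The largest falls were those of Wee1, whose kinase product holds CDK1 inactive (1.18 ± 0.164 CPM against 25.2 ± 3.98 CPM, -4.41), Plk2 (12.8 ± 1.12 CPM against 117 ± 3.23 CPM, -3.19) and Cdkn2d, which encodes the CDK4 and CDK6 inhibitor p19 (6.03 ± 0.710 CPM against 40.3 ± 20.8 CPM, -2.74). Cdkn2a was too low to be tested, with 34 counts over the microglia libraries and 13 over bulk brain. Genes of the immediate early and dissociation response, 12 of 12 of which were higher, summed to 18570 to 22720 CPM in microglia versus 291 to 446 CPM in bulk brain, and their part in the levels of Btg2, Plk3 and Cdkn1a was not tested.

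**Figure D5:**
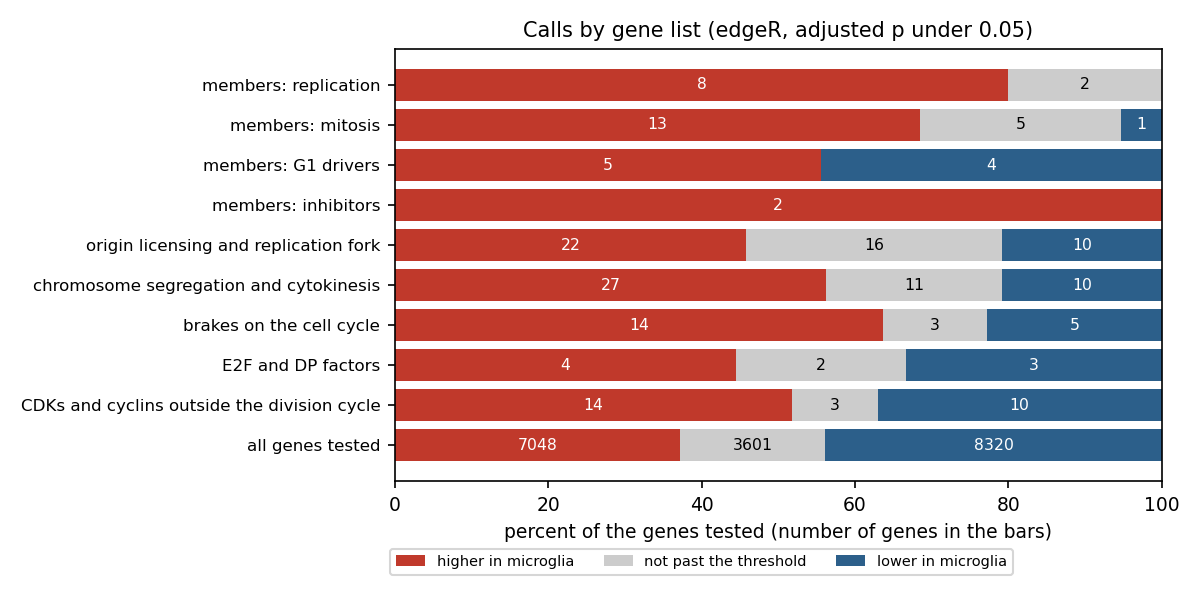
Percent of the tested genes of each list that were higher, lower or not past the threshold in microglia (edgeR, adjusted p under 0.05), with the number of genes in each bar, for the 4 roles of the members, 5 wider lists and all genes tested. Replication has 8 of 10 higher and mitosis 13 of 19, against 7048 of 18969 over all genes.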

How the data were processed

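RNA-seq was measured in 5 samples of CD11b-positive brain cells and 5 of hemi brains. Poly-T beads captured the messenger RNA and random hexamers primed it, per the labels' protocols. The submitters' processing notes name CASAVA, HISAT2 2.2.1, featureCounts 2.0 and the build GRCm39, with no role or order. No strand setting, no treatment of multiply mapped reads and no annotation release was given in those sources. What the authors deposited were raw counts per gene, with no normalization, and the gene length, symbol and coordinates used here come from that table too, per the file headers. All 10 value columns were mapped to samples (0 were not), and 0 rows lacked a gene identifier.

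Genes were kept by edgeR's filterByExpr (18969 of 56748), scaled by TMM and compared by the quasi-likelihood test of edgeR over all 10 libraries with group as the only term (edgeR 4.0.16, R 4.3.3). P-values were adjusted by Benjamini-Hochberg over all genes tested, with a threshold of 0.05. CPM use TMM-scaled library totals, a fold is the ratio of mean CPM, and the SE is the log2 difference divided by the square root of the F statistic. The test was tried on simulated counts drawn for both groups from the mean bulk brain profile, with few genes changed. That check does not cover data such as these, where most genes tested differ. Libraries entered as separate samples because the labels list them so. Any pair of libraries of one group differed beyond counting noise (chi-square of at least 5.45 per degree of freedom), which repeat preparations of one animal could also give. Total counts of 25087489 to 34709215 set the precision. The members were compared by role with counts and medians, without a test of the list. In the 5 wider lists the text names, among called genes whose higher group reached 5 CPM, the 3 largest rises and the 3 largest falls, and in any case Cdkn2a, Rb1, Trp53 and Cdk5. Other genes were named after their values were seen. Members and lists were chosen with earlier results of these data known. Alternatives were median-of-ratios, upper-quartile and library-size scaling, other filters, DESeq2 1.42.0, limma-voom (limma 3.58.1), a replicate block and leaving out each library. Promoter windows come from RefSeq for GRCm38.p6, another build than that of the counts. Python 3.11.15 with pandas 2.3.3 and matplotlib 3.10.9 was used for levels and plots.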

Additional observations from a re-analysis of the deposited data

Results flagged for a closer look

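In 4 of the 88 groups of 5 libraries examined (each member, and the summed level of each role, in each cell source), 1 library lay far from the others by Dixon's criterion, which chance alone gives in about 1 group in 20. Top2a was at 10.4 CPM in microglia replicate 5, against 12.5 to 13.0 CPM in the other microglia libraries. Rrm1 was at 35.7 CPM in microglia replicate 2, against 31.3 to 32.4 CPM. Rrm2 was at 0.894 CPM in bulk brain replicate 2, against 1.68 to 1.87 CPM, and Tyms at 2.83 CPM in bulk brain replicate 3, against 1.5 to 1.75 CPM.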

How the results depend on the processing

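Of the 40 members, 26 kept their direction and their side of the threshold under all 20 settings run, and 5 (Ccnb1, Ccnb2, Bub1, Plk1 and Ube2c) did so under 19, since the filter of 1 CPM in 5 libraries left them untested, with 9 mitosis members higher in place of 13. The other 9 were Aurka, Tpx2, Cdk4, Ccna2, Cdc20, Mcm4, Mcm5, Mcm7 and Rrm1. The count of members higher was 24 to 29 and that of members lower was 5 under every setting. Over all genes the median of -0.14 became -0.31 with median-of-ratios size factors, -0.33 with library size alone and -0.85 with no filter on low counts. Mcm4 passed with upper-quartile scaling (0.33, adjusted p = 0.038), and Mcm7 did not with library size alone (0.061), with no filter (0.087) or against bulk brain replicates 1 and 2 alone (0.13), nor did Rrm1 with no filter (0.059) or Mcm5 against those 2 libraries (0.11). The log2 difference of Aurka turned positive without microglia replicate 2 (0.0123) or 4 (0.122), without bulk brain replicate 2 (0.0355) and against bulk brain replicates 3 to 5 alone (0.207), and that of Tpx2 turned negative with library size alone (-0.013) and against replicates 3 to 5 alone (-0.000605); the cause was not tested. The ratio of summed CPM, microglia over bulk brain, moved by more than the spread between libraries in these cases: for replication, 2.039 with median-of-ratios factors, 2.012 with library size and 2.003 against bulk brain replicates 1 and 2; for mitosis, 4.135 without Stmn1, by construction; for G1 drivers, 1.933 and 1.911 with those scalings, 1.987 and 1.996 against bulk brain replicates 3 to 5 and 1 and 2, and 1.983 to 2.222 without single libraries; for inhibitors, 1.545 and 1.525 with those scalings. In the main setting the mean summed levels in microglia and bulk brain were 247.8 and 108.3 CPM for replication and 343.5 and 158.2 CPM for G1 drivers. They were 145.6 and 83.9 CPM for inhibitors and, with Stmn1, 94.69 and 440.9 CPM for mitosis. Leaving Stmn1 out thus reversed the direction for mitosis. With replicate number as a block, 28 members were higher and 5 lower, and 6858 of all genes higher and 8037 lower, against 7048 and 8320. The numbers do not pair the samples (same-number correlations of -0.021 to 0.010, and 0 of 5 matched best with their own number), and the block changed 1 call among the named genes, E2f5 (adjusted p = 0.070). Depth limits the genes under about 1 CPM, such as Aurkb, Bub1, Ube2c and Ccnb1 in bulk brain.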

Other observations

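CDK and cyclin genes that act outside the division cycle were called in both directions, as were all genes tested (37.2% higher and 43.9% lower in microglia). Of 27, 14 were higher in microglia, 10 lower and 3 not past the threshold (median log2 difference 0.50, edgeR quasi-likelihood test). The largest rises were in genes of RNA synthesis and splicing: Ccnl1, a cyclin of splicing kinases (470 ± 23.6 CPM against 48.9 ± 4.68 CPM, log2 difference 3.26), Cdk12, a kinase of the elongating polymerase (101 ± 3.45 CPM against 29.8 ± 16.0 CPM, 1.76), and Ccnl2 (318 ± 15.7 CPM against 104 ± 2.35 CPM, 1.61). Cdk12 was 8.30 to 43.1 CPM over the bulk brain libraries. The largest falls were in Cdk5r2, a neuronal activator of CDK5 (0.356 ± 0.422 CPM against 190.5 ± 45.4 CPM, -9.05, or -9.93 without microglia replicate 2), Cdk18 (2.42 ± 0.450 CPM against 38.1 ± 4.55 CPM, -3.97) and Cdk14 (25.1 ± 3.20 CPM against 180.0 ± 59.5 CPM, -2.84). Cdk5 itself, a kinase of neurons that does not drive division, was lower by less (30.8 ± 1.83 CPM against 87.8 ± 32.2 CPM, -1.51).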
